A study of Homo sapiens with 18 samples.

Results

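The core pluripotency factors are 8 genes that mark or maintain the undifferentiated state of human embryonic stem cells (hESCs): POU5F1, NANOG, SOX2, PRDM14, ZFP42, DPPA4, LIN28B and SALL4. They were chosen by name, and all 8 are among the 10975 genes with a deposited RPKM (a read count scaled to transcript length and to the number of mapped reads) in the first wild-type (WT) series. Of the 8, SOX2 and PRDM14 are among the 497 genes of the table on SP5 mutant cells. RNA-Seq was carried out on the hESC line H1 (WA01), grown in E8 medium and treated with the signalling protein Wnt3a at 1 nM for 12, 24 or 48 h. The cells at 0 h received buffer without Wnt3a. There are 4 series of these times: the first WT series, a second WT series (WT Rep. 2), and the clones dZF1 and dZF2, in which the sequence encoding the zinc-finger, DNA-binding domain of the transcription factor SP5 was deleted from both alleles with CRISPR-Cas9. Each clone grew from a single cell, so each is 1 line rather than a population of mutants. Each series has 1 library per time, so no value below has a replicate at the same time in the same table, and no test across genes was made.

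The pluripotency network is a group of transcription factors that bind each other's genes and many shared enhancers, and thereby keep embryonic stem cells self-renewing. POU5F1 (OCT4) and SOX2 bind DNA as a pair, and NANOG joins them at many of the same sites. Wnt signalling through beta-catenin drives such cells towards primitive streak, mesendoderm and endoderm. SOX2 stays on in the neural lineage, which is separate from these.

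After 48 h of Wnt3a, the 8 factors did not move as a block. SOX2 and PRDM14 were more than 2-fold lower than at 0 h, whereas POU5F1, LIN28B and SALL4 held their level, meaning that log2(RPKM + 1) stayed within 0.5 of its value at 0 h at every time. ZFP42 and DPPA4 lay between these, lower at 48 h by more than 0.5 but less than 2-fold. NANOG was 0.68 higher at 24 h and back at its first level at 48 h. These 3, neither held nor 2-fold lower, are called intermediate. At 12 h and 24 h none of the 8 was 2-fold lower, and 0.738% and 1.36% of listed genes were. Of all listed genes, 2.95% were at least 2-fold lower at 48 h, 66.9% held by the same limit and 30.1% were intermediate in either direction. The median log2 change of the 8 factors moved from -0.06 at 12 h to -0.18 at 24 h and -0.45 at 48 h, beside -0.01, -0.01 and -0.00 over all listed genes.

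**Figure D1:**
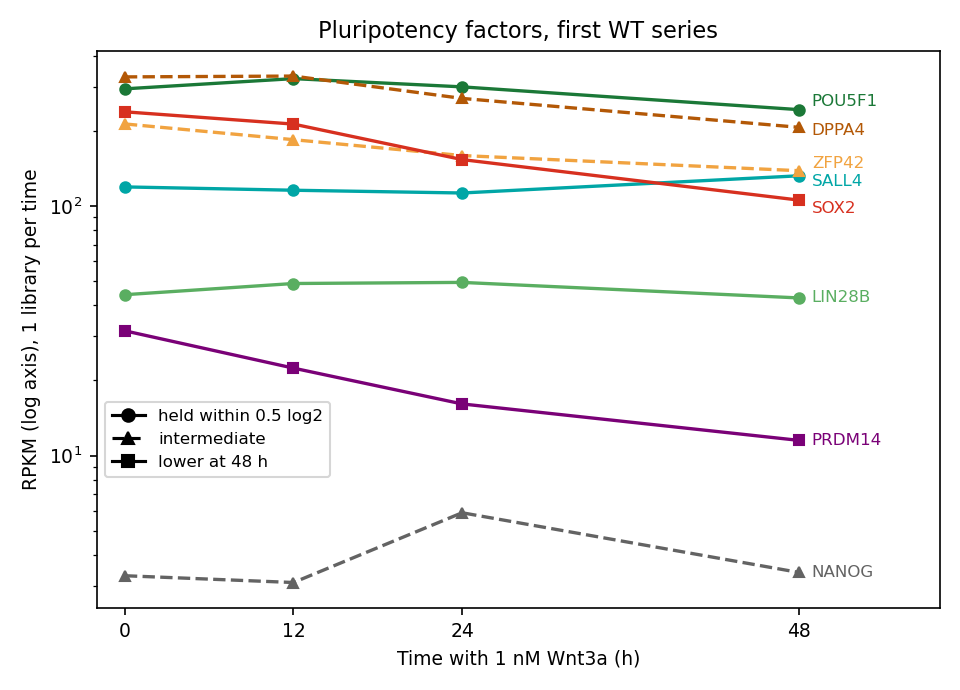
RPKM of the 8 pluripotency factors (log axis) against hours with 1 nM Wnt3a in the first WT series, with 1 library per point. SOX2 and PRDM14 (squares) fall at every step, POU5F1, LIN28B and SALL4 (circles, solid lines) stay near their level at 0 h, and NANOG, ZFP42 and DPPA4 (triangles, dashed lines) are intermediate.

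POU5F1 encodes the POU-domain factor OCT4, at the centre of the network. Its RPKM began at 294.6, went to 323.7 at 12 h and 300.0 at 24 h, and ended at 243.1 at 48 h. It rose slightly, returned and ended at 82.5% of its level at 0 h, a log2 change of -0.28, and it stayed above 98.3% of listed genes at 48 h. POU5F1 (ENSG00000204531, chr6:31132114-31148508, minus strand, GRCh37) has near-identical copies, and 63.9% of the 50-base words in its main transcript occur in other annotated transcripts as well, with 35.8% of all its words in POU5F1B. The RPKM listed for POU5F1B was 183.8, 183.8, 178.9 and 131.6 at the same times. POU5F1 made up 35.5% to 37.5% of the summed RPKM of POU5F1, POU5F1B, POU5F1P3 and POU5F1P4 at every time. RPKM does not show how reads were split among the copies, and the part of this split in the POU5F1 level was not tested. The summed RPKM of these 4 genes went from 829.4 at 0 h to 657 at 48 h.

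SOX2, the HMG-box partner of OCT4 (ENSG00000181449, chr3:181429713-181432224, plus strand), had an RPKM of 238.3 before Wnt3a, then 212.8 at 12 h, 153.4 at 24 h and finally 105.5 at 48 h. Each value was below the one before, and 44.3% of the level at 0 h was left at 48 h, a log2 change of -1.17. Only 1.88% of listed genes had a lower change at 48 h. As listed per transcript length, the ratio of SOX2 RPKM to POU5F1 RPKM went from 0.809 at 0 h to 0.657, 0.511 and then 0.434. Since the split of reads among the POU5F1 copies is not known, this ratio is of listed values and is not taken as that of the partners' true levels. SOX2 lies inside the span of the long noncoding gene SOX2-OT on the same strand (chr3:180707550-181554668), and how the authors' counting treated reads in this overlap is not given in the sources used here.

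NANOG, a homeobox factor of the same core, had an RPKM of 3.3 before Wnt3a, then 3.1 at 12 h, 5.9 at 24 h and again 3.4 at 48 h. It was the lowest of the 8 factors in every library, above only 5.36% of listed genes at 0 h, and near the RPKM of 4 that a gene had to reach in at least 1 library to be listed. The value at 24 h stood apart from the other 3, with a log2 change of 0.68, and the change at 48 h was 0.03. Of the 50-base words of the NANOG transcript (ENSG00000111704, chr12:7940390-7951742, plus strand), 28.4% occur in other transcripts, most of them in NANOGP8. NANOGP8 is not among the listed genes, so it has no RPKM to set beside that of NANOG. The part that shared sequence or the low level plays in these values was not tested.

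PRDM14, a PR-domain zinc-finger protein that represses differentiation and DNA methylation genes in stem and germ cells (ENSG00000147596, chr8:70963886-70983928, minus strand), fell most of the 8. Its RPKM was 31.6 before Wnt3a and then 22.4, 16.1 and 11.5 at the 3 later times. It went down by similar steps on the log2 scale, -0.48, -0.45 and -0.45, and ended at 36.4% of its level at 0 h. Its log2 change at 48 h was -1.38, and 1.24% of listed genes had a lower one. In rank among listed genes it went from 2715 at 0 h to 6592 at 48 h, so it moved from the upper part of the table to the lower. No 50-base word of its transcript occurs in another annotated transcript.

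ZFP42 (REX1), a zinc-finger protein widely used as a marker of pluripotent cells (ENSG00000179059, chr4:188916925-188926200, plus strand), had an RPKM of 213.1, 184.3, 159.2 and 138.4 in time order. It too was lower at each time than at the one before, as SOX2 and PRDM14 were. Such a steady fall, which 3 of the 8 factors showed, was seen in 9.21% of all listed genes. ZFP42 ended at 64.9% of its level at 0 h, a log2 change of -0.62. DPPA4, a chromatin-associated protein of early embryos and stem cells (ENSG00000121570, chr3:109044991-109056393, minus strand), had an RPKM of 328.9 at 0 h and 331.4 at 12 h, the highest of the 8 at both times. It then went down to 269.7 at 24 h and 206.5 at 48 h, or 62.8% of the level at 0 h, with log2 changes of -0.29 and -0.67. Both genes were more than 1.5-fold lower at 48 h, as were 9.19% of all listed genes.

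LIN28B encodes an RNA-binding protein that blocks maturation of let-7 microRNAs (ENSG00000187772, chr6:105384491-105531207, plus strand). Its RPKM was 44.1, 48.9, 49.4 and 42.8, and its largest log2 change from 0 h was 0.16. SALL4, a zinc-finger factor found with OCT4 and NANOG in stem cells (ENSG00000101115, chr20:50398870-50419060, minus strand), had an RPKM of 119.2, 115.6, 112.7 and 132.1. It was the only one of the 8 whose highest value was at 48 h, with a log2 change of 0.15. LIN28B and SALL4 stayed in so narrow a range that they held also when the limit was 0.25 in place of 0.5, which POU5F1 did not.

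**Figure D2:**
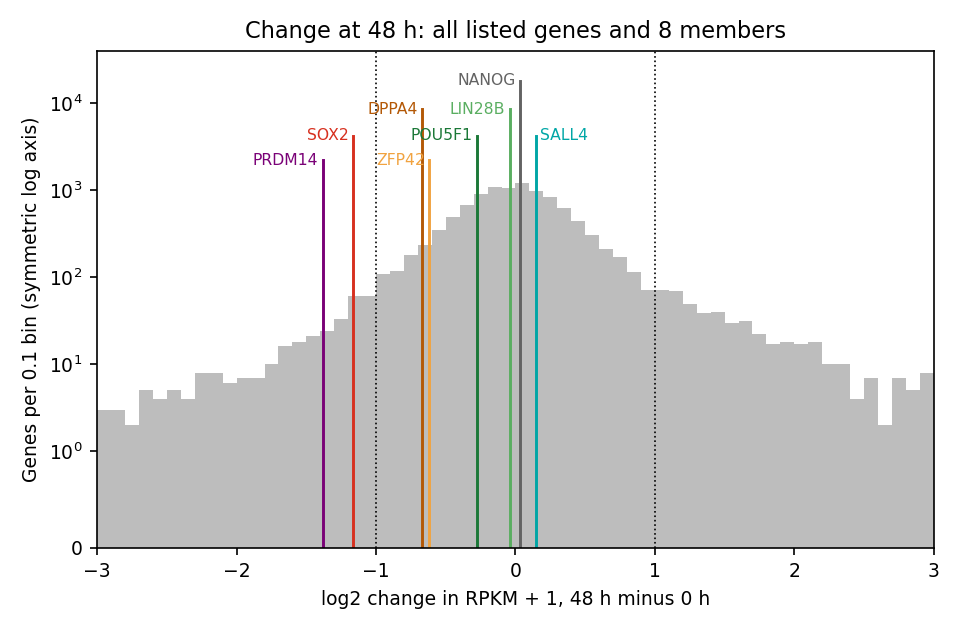
Number of listed genes (symmetric log axis) by log2 change in RPKM + 1 from 0 h to 48 h in the first WT series, in bins of 0.1, with a coloured line at the value of each of the 8 factors. Line heights only separate the names, dotted lines mark 2-fold changes and genes beyond 3 on either side are not drawn. PRDM14 and SOX2 lie past the 2-fold line on the low side, at -1.38 and -1.17.

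All 4 primitive streak and mesendoderm markers (T, MIXL1, EOMES, GSC) and all 5 endoderm markers (SOX17, FOXA2, GATA6, CXCR4, CER1) were at least 2-fold higher at 48 h in the first WT series, where 4.87% of listed genes were. None of 4 neural ectoderm markers and none of 5 trophoblast markers was listed in the table. In bulk RNA, fewer cells with a transcript and less of it in each cell cannot be told apart, so a SOX2 level of 44.3% may stand for either.

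SOX2 and PRDM14 can also be followed in WT Rep. 2 and in the clones. The genes of this second table are from the study's list of genes that changed with Wnt3a, so being listed is itself tied to a change in WT cells. There, each value is an RPKM divided by the gene's highest RPKM in WT Rep. 2, which leaves the RPKM itself unknown. In WT Rep. 2, SOX2 went from 1 before Wnt3a to 0.81, 0.77 and 0.63 at the later times, and it fell at each step as in the first WT series. In dZF1 it was 0.71, 0.71, 0.63 and 0.35. In dZF2 it was 0.62, 0.54, 0.26 and 0.41. Both clones were below WT Rep. 2 at each of the 4 times, before Wnt3a included, and the value of dZF2 at 24 h was the lowest of the 12.

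PRDM14 in WT Rep. 2 went from 0.82 before Wnt3a to 1, 0.95 and 0.45 at the later times. In this second WT series it therefore stayed up to 24 h and was lower only at 48 h, whereas it was already lower at 12 h in the first. The 4 values of dZF1 were 0.44, 0.44, 0.33 and 0.20, and those of dZF2 0.55, 0.43, 0.48 and 0.18. The clones were again below WT Rep. 2 at every time. Of the 497 genes, 11.7% lay lower in both clones at all 4 times, and taking each time by itself the shares were 42.5%, 43.3%, 29.2% and 36% in time order.

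**Figure D3:**
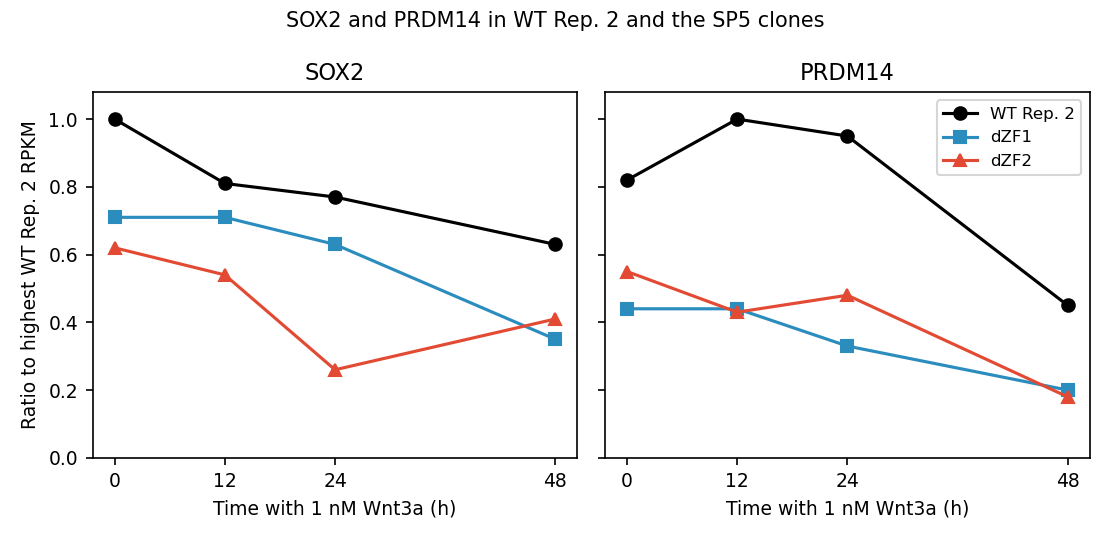
SOX2 (left) and PRDM14 (right) as a ratio to the highest WT Rep. 2 RPKM of that gene, against hours with 1 nM Wnt3a, with 1 library per point. Both clones (blue squares, dZF1; red triangles, dZF2) lie below WT Rep. 2 (black circles) at all 4 times in both panels.

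As a mean over both clones, the log2 ratio to WT Rep. 2, with a pseudocount of 0.05, was -0.56 ± 0.13 (SD, n = 2 clones) for SOX2 and -0.68 ± 0.21 for PRDM14 at 0 h. At 48 h it was -0.66 ± 0.14 for SOX2 and -1.06 ± 0.085 for PRDM14. The median over all 497 genes was -0.07 at 0 h and 0.05 at 48 h. The clones were closest to each other for PRDM14 at 12 h, where dZF1 had 44% and dZF2 43% of the WT Rep. 2 value. They were farthest apart for SOX2 at 24 h, where dZF1 had 81.8% and dZF2 33.8%. These SDs are the spread between clones, and WT Rep. 2 gives 1 value with no spread of its own. With 2 clones against 1 WT library, the smallest p an exact permutation test allows is 0.33.

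Measured from its own 0 h library, each series showed lower SOX2 and PRDM14 at 48 h. For SOX2 the log2 change was -0.93 for dZF1, -0.54 for dZF2, -0.63 for WT Rep. 2 and -1.17 for the first WT series, with a mean of -0.82 ± 0.29 (SD, n = 4 series). For PRDM14 it was -0.97, -1.38, -0.80 and -1.38 in the same order, with a mean of -1.13 ± 0.30. An exact two-sided sign-flip permutation test over the 4 series gave p = 0.125 for each gene. This is the smallest p that 4 series allow, and any gene with 4 changes of the same sign gets it. The test therefore adds nothing to the signs, and it takes the WT series and the clones together. A change below 0 in all 4 series was found for 23.1% of the 497 genes. The clones' changes overlapped the WT changes for both genes. Set against WT Rep. 2, the mean change in the clones was 0.11 lower for SOX2 and 0.38 lower for PRDM14, and set against the first WT series it was 0.43 and 0.21 higher, so the direction of the difference in fall depends on which WT series is taken. For a scale, the changes in the WT series from 0 h to 48 h differed from each other by a median of 0.68 over the 497 genes.

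The WT series also differed in when the differentiation markers came up. The summed level of the 4 primitive streak and mesendoderm markers at 24 h, each as a share of its highest value in that series, was 3.78 in the first WT series (range 0.78 to 1) and 0.57 in WT Rep. 2 (0.05 to 0.34). On the WT Rep. 2 scale, the clones had sums of 2.81 (dZF1, range 0.42 to 0.94) and 13.13 (dZF2, 1.8 to 6.16) at that time. The highest value in dZF2 was that of T. The 5 endoderm markers summed to 1.64 for the first WT series and 0.10 for WT Rep. 2 at 24 h, each on its own scale. On the WT Rep. 2 scale, dZF1 had 0.81 and dZF2 1.28, which cannot be ranked against the first WT series. At 48 h the sum of these 5 was 5 for both WT series, where each had its highest value and so counts as 1. It was 11.73 for dZF1 and 12.18 for dZF2 on the WT Rep. 2 scale. PRDM14 was thus at 0.95 in WT Rep. 2 at the time when that series had little of these markers. The part of the markers' timing in the levels of SOX2 and PRDM14 was not tested. SP5 itself stood at 1 for WT Rep. 2, 2.54 for dZF1 and 2.61 for dZF2 at 48 h, and since the deletion takes out only a part of the gene, the level of the whole transcript does not check it.

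Among the genes with the profile nearest to PRDM14 over the 4 libraries of the first WT series, by Euclidean distance of percent of maximum RPKM, were CD24 and TRANK1, at distances of 4.41 and 7.21 beside a median of 72.1 over 10974 genes. CD24, a cell surface glycoprotein of undifferentiated hESCs, went from an RPKM of 1493.7 at 0 h to 524.4 at 48 h. For SOX2 they were UBE2L6, TRMT61A and ASPHD1, at distances of 5.11, 5.32 and 5.69 beside a median of 58.1. Over the 12 libraries of the second table, with distance taken on the deposited values, the nearest to SOX2 were PPM1B, UGP2 and SAMHD1 (0.286, 0.394 and 0.428, median 1.61 over 496 genes). The nearest to PRDM14 were PPAP2B, AASS and PODXL (0.294, 0.299 and 0.322, median 1.83). PODXL encodes podocalyxin, which carries the TRA-1-60 and TRA-1-81 epitopes used to recognise hESCs. PRDM14 ranked 44 by nearness to SOX2, so SOX2 and PRDM14 were not each other's nearest.

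Other genes tied to pluripotency were read from a list of 49: 30 pluripotency genes, 9 genes of the naive state and 10 genes of a surface list. Of these, 42 were listed in the RPKM table, and 10 of the 42 (23.8%) were at least 2-fold lower at 48 h in the first WT series, beside 2.95% of all listed genes, while 4 were at least 2-fold higher (4.87% of all listed genes) and 8 held (66.9% of all listed genes). Their median log2 change was -0.59. The largest falls were those of DPPA5, a KH-domain protein of early embryos, POU3F1, a POU factor of epiblast and neural cells, and SOX3, the close relative of SOX2. DPPA5 went from an RPKM of 4 to a listed value of 0 at 48 h, a level near the limit of the table. POU3F1 went from 30.8 to 6.2 and SOX3 from 14.2 to 3.7, log2 changes of -2.14 and -1.69. The largest rises were those of TBX3, a T-box factor, from 0.1 to 12.2, GDF3, a TGF-beta family ligand, from 11.6 to 81.9, and KLF5, a Krüppel-like factor, from 2.3 to 11.1. LIN28A, the paralog of LIN28B, had an RPKM of 1014.1 at 0 h and 784.7 at 48 h and held by the same limit.

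Of the 42, 19 are in the second table. In the first WT series 9 of these 19 were at least 2-fold lower at 48 h: TERF1, POLR3G, USP44, MYC, MYCN, SOX3, POU3F1, THY1 and CD24. Of these 9, SOX3 alone was at least 2-fold lower in WT Rep. 2, and TERF1, POLR3G, SOX3, POU3F1 and CD24 were so in both clones. These 9 were picked by their fall in the first WT series, and no share of the 497 genes by the same joint rule is given. Over all 19, such a fall was found for 9 by the first WT series, 1 by WT Rep. 2, 7 by dZF1 and 7 by dZF2. Among the 497 genes it was found for 18.9% by the first WT series, 6.44% by WT Rep. 2, 13.9% by dZF1 and 16.3% by dZF2. The median log2 change of the 19 genes was -0.58 for dZF1, -0.79 for dZF2, -0.10 for WT Rep. 2 and -0.99 for the first WT series. POU3F1 differed widely between the WT series, with a log2 change of -2.14 for the first and -0.13 for WT Rep. 2. At 48 h, 15 of the 19 lay below WT Rep. 2 in both clones, where 36% of the 497 genes did. At all 4 times 4 of the 19 did so, where 11.7% of the 497 genes did: TERF1, a telomere-binding protein, DNMT3B, a de novo DNA methyltransferase, SOX3 and PODXL. SOX3 went through 1, 0.55, 0.53 and 0.40 in WT Rep. 2, through 0.54, 0.51, 0.37 and 0.12 in dZF1, and through 0.62, 0.44, 0.16 and 0.27 in dZF2. In dZF2, SOX3 and SOX2 had their lowest value in the same library, at 24 h.

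**Figure D4:**
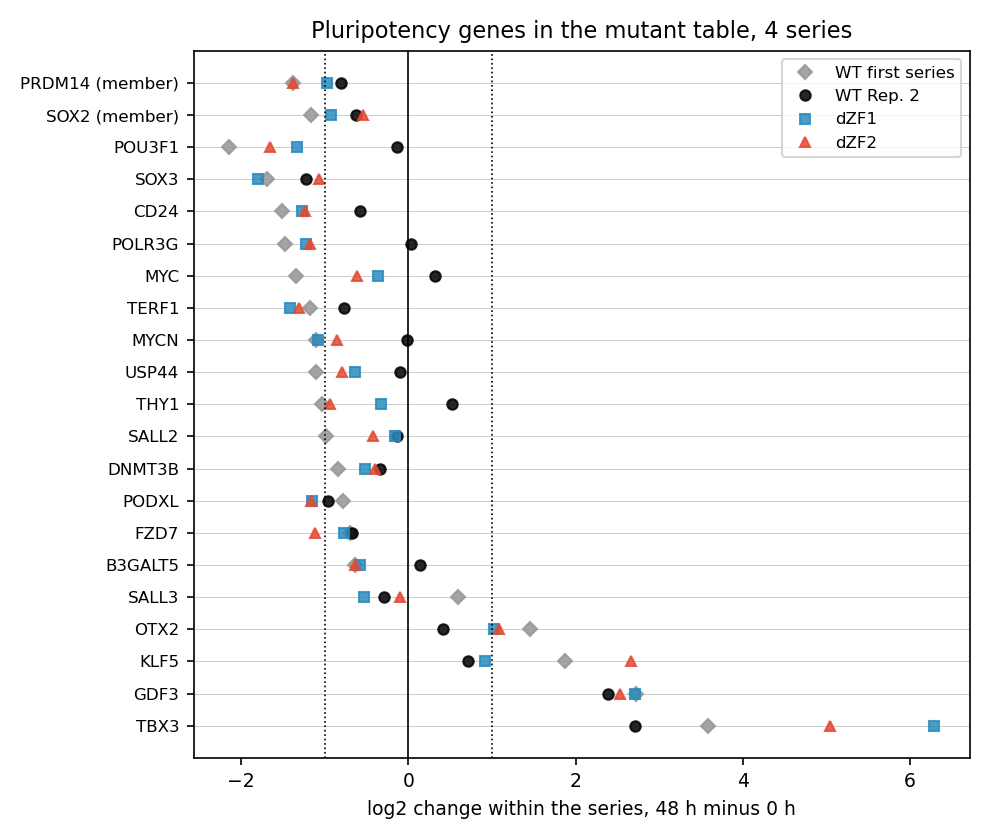
Change on the log2 scale from 0 h to 48 h within each series for SOX2, PRDM14 and the 19 other pluripotency genes of the second table; gray diamonds are the first WT series, black circles WT Rep. 2, blue squares dZF1 and red triangles dZF2, with dotted lines at 2-fold. SOX2 and PRDM14 lie below 0 in all 4 series, while POLR3G, MYC, THY1 and B3GALT5 lie above 0 in WT Rep. 2 and below 0 in the other 3.

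SP5 ChIP-Seq, which maps DNA bound by SP5, gave 2 lists of peaks. The Wnt3a treatment for ChIP-Seq lasted 24 h, and no peak list is from 48 h. The header of each list names 1 and the same ChIP library, from Wnt3a-treated cells, set against a control library from buffer-treated cells in one list and from Wnt3a-treated cells in the other. The lists hold 542 and 540 peaks and are named here by their control, since the label of the first gives no Wnt3a and the headers name hESC line H9 where the labels give H1. The median false discovery rate (FDR) of a peak was 69.6% in the buffer list and 39.7% in the Wnt3a list. A peak summit lay within 100 kb of the annotated gene start for 3 of the 8 factors, POU5F1, PRDM14 and LIN28B, and for 10.1% of the 9619 listed genes that matched the annotation. The peak in PRDM14 was the only one of these called in both lists, and 3.84% of listed genes had such a peak. Within 2 kb of any annotated transcript start, a summit was found for POU5F1 and LIN28B, and for 2.15% of listed genes.

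The peak at PRDM14 (chr8:70973225-70974390, GRCh37) had 47 tags and its summit lay in intron 5, 10252 bases after the gene start. It was 9.64-fold over the buffer-treated control with an FDR of 5%, and 5.88-fold over the Wnt3a-treated control with an FDR of 7.14%. The peak at LIN28B (chr6:105404839-105405710) was called in the Wnt3a list alone, with 25 tags, a 6.91-fold enrichment and an FDR of 49.5%. Its summit lay in intron 1, 260 bases after the start of the MANE Select transcript and 20751 bases after that of the longest one. The peak at POU5F1 (chr6:31139276-31140279) was called in the buffer list alone, with 31 tags, a 10.6-fold enrichment and an FDR of 73.4%. Its summit lay 1316 bases before the MANE Select start and within an intron of a longer POU5F1 transcript. Of the 3 genes with a peak, PRDM14 fell while LIN28B and POU5F1 held. The nearest summit to SOX2 was 2307471 bases away, to ZFP42 6670210, to SALL4 301686, to DPPA4 204678 and to NANOG 172096.

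**Figure D5:**
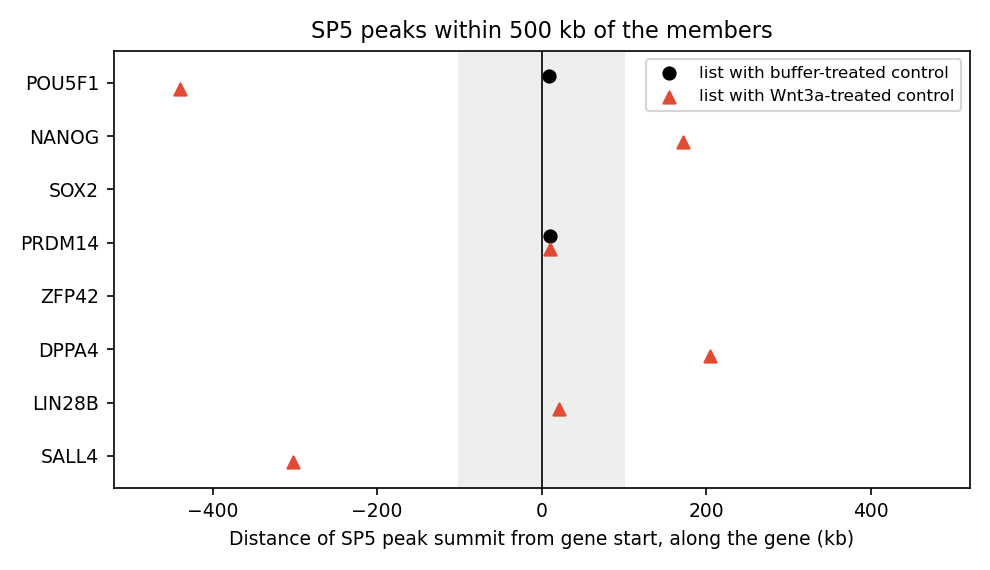
Distance in kb from the annotated gene start, along the direction of the gene, to each SP5 peak summit within 500 kb of the 8 factors; black circles are peaks of the list with the buffer-treated control, red triangles those of the list with the Wnt3a-treated control, and the gray band marks 100 kb. POU5F1, PRDM14 and LIN28B have a summit inside the band, and PRDM14 alone has it in both lists.

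SP5 belongs to the SP/KLF family, whose zinc fingers bind GC boxes, so the letters GGGCGG and GGGAGG were looked for on both strands. The bases within 100 of the summits at POU5F1 (chr6:31139675-31139875) and LIN28B (chr6:105405142-105405342) are shown on the plus strand of GRCh37, 5′ to 3′, since they are the peak sequence at factors that held, with each match in capitals, as CCGCCC or CCTCCC where it lies on the minus strand.

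POU5F1 peak: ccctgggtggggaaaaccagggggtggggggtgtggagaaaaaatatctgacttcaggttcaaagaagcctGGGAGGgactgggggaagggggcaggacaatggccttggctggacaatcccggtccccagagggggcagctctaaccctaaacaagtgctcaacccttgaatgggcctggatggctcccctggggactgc

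LIN28B peak: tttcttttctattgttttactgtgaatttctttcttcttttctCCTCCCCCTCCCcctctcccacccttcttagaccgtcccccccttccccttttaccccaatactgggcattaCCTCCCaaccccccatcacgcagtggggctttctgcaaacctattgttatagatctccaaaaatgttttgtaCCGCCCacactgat

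The POU5F1 window holds 1 GGGAGG and no GGGCGG, and the LIN28B window holds 3 GGGAGG and 1 GGGCGG. The window at the PRDM14 summit holds neither. At least 1 of these strings occurs within 100 bases of 60.7% of summits in the buffer list and 63.3% in the Wnt3a list, beside 35.0% and 34.9% of flanking windows of the same length.

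The promoters of the factors that fell or were intermediate, and have an entry in the RefSeq promoter table (GRCh38.p14), are shown as the 250 bases before the start, 5′ to 3′ along the gene, with the same letters in capitals. SOX2 is at chr3:181711675-181711924, ZFP42 at chr4:187995521-187995770 and DPPA4, on the minus strand, at chr3:109337547-109337796. NANOG, whose promoter is not shown, has neither string.

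SOX2 promoter: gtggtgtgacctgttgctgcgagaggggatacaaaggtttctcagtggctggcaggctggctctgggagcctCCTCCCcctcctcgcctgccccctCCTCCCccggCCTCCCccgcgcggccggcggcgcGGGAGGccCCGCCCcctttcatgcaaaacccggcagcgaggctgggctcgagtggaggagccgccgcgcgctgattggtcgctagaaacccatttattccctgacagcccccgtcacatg

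ZFP42 promoter: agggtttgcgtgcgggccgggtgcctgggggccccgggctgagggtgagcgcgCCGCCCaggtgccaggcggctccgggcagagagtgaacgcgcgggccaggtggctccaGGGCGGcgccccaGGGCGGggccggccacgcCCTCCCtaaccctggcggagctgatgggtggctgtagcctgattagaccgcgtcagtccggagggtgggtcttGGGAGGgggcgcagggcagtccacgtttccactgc

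DPPA4 promoter: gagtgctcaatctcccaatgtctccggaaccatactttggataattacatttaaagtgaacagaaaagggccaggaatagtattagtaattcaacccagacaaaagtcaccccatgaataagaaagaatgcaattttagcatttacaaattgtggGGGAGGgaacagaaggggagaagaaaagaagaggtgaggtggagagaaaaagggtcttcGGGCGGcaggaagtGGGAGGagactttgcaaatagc

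SOX2 has 1 GGGCGG and 4 GGGAGG, ZFP42 has 3 and 2, and DPPA4 has 1 and 2. Of the 5 factors with an entry, 4 had at least 1 of the strings, as did 62.4% of all 35116 promoters of the same length. LIN28B, a factor that held, has them too, with 2 GGGCGG and 1 GGGAGG in the first of its listed promoters and none in the second. Base composition differs among them, from 43.2% G and C in DPPA4 to 68.8% in SOX2 and 74.4% in ZFP42, beside a median of 58% over all promoters. A match is a run of letters and not a measured site, and no SP5 peak was called within 100 kb of SOX2, ZFP42 or DPPA4.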

How the data were processed

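RNA-Seq was measured in H1 hESCs at 0, 12, 24 and 48 h of Wnt3a in 4 series with 1 library per time, and SP5 ChIP-Seq peaks in 2 lists. Samples were grouped by the conditions in their labels, and all per-sample columns had one. A table that repeats a part of the fractions was not used. The authors removed rRNA with Ribo-Zero, made stranded libraries, mapped reads to hg19 (GRCh37) with TopHat and computed RPKM with Cuffdiff; the gene annotation is not given in the sources used here. They deposited RPKM rounded to 1 decimal for genes that reach an RPKM of 4, and the same genes as a fraction of their highest RPKM, which differ from those computed from the RPKM by at most 0.024. In the second table the values of WT Rep. 2 are, as deposited, a fraction of its highest RPKM, and those of the clones a ratio to that RPKM. The tables were scaled apart. Only changes within a series, and marker levels as a share of the highest value in the same WT series, are set side by side across them. No read counts are given, so RNA-Seq depth is unknown and no counting interval is given. For each peak the authors deposited a count of tags, a score, a fold over the control and an FDR in percent, all from MACS 1.4.2 run with its p-value limit at 1e-05. The submitters' processing notes also name Bowtie 0.12.7 and SAMtools 0.1.12a. The ChIP library has 18641194 tags.

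Changes were computed as log2 of RPKM + 1, or of the ratio + 0.05, and called at 2-fold. The code for the calls was run on simulated data with large planted changes, little noise and no genes of low RPKM. That run checks the code and does not show how reliable a call is in these data. Peaks and genes were placed with GENCODE release 44 mapped to GRCh37, which 9619 of 10975 symbols matched (87.6%). The members and lists were chosen with earlier results of these data known. The genes named are the 8 factors, the genes nearest to SOX2 and PRDM14 in profile, and, of the other pluripotency genes, the 3 largest falls and rises, those in the second table and those near a peak; 1 gene that this rule names is not reported here. Alternatives were other pseudocounts, thresholds, scalings, peak filters and windows, and each clone left out. Leaving out each series from the 4-series means, a window of 2 kb and the sign-flip test over series were added after seeing the data. Python 3.11.15, numpy 2.4.6, pandas 2.3.3 and matplotlib 3.10.9 were used.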

Additional observations from a re-analysis of the deposited data

How the results depend on the processing

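No paired analysis was possible because the WT series were scaled apart, with 1 library per series and time, other than the changes within each series, which set its 48 h library against its own 0 h library. The count of 2 factors at least 2-fold lower at 48 h kept its value under every pseudocount and scaling and with a maximum RPKM of at least 10, and became 4 with a threshold of 1.5-fold, which by construction adds ZFP42 and DPPA4. With that threshold the count of other pluripotency genes went from 10 to 21. The count of 3 that held became 4 with a pseudocount of 5, which adds NANOG, and 2 with a limit of 0.25, which removes POU5F1. At 48 h the clones' mean log2 ratio to WT Rep. 2 was -0.52 for SOX2 with a pseudocount of 0.2, and for PRDM14 -0.74 with 0.2 and -1.20 with 0.01. Taken relative to the 0 h library of the same series it was -0.11 for SOX2 and -0.38 for PRDM14, since both clones were already lower at 0 h. Against the change in the first WT series it turned to 0.43 and 0.21. Leaving out 1 clone gave -0.77 to -0.56 for SOX2 and -1.12 to -1 for PRDM14. Leaving out 1 series, chosen after seeing the data, gave mean changes from -0.91 to -0.70 for SOX2 and from -1.25 to -1.05 for PRDM14. The count of 3 factors with an SP5 peak became 1 within 10 kb of the annotated gene start, which leaves POU5F1. From the nearest transcript start, the summits at POU5F1, PRDM14 and LIN28B lay 1316, 9811 and 260 bases away, all within 10 kb. The count was also 1 for peaks in both lists, for a score above the median and for an FDR of at most 20%, which each leave PRDM14. It became 6 within 500 kb. Within 2 kb of any transcript start, also chosen after seeing the data, it was 2. RNA-Seq depth is unknown, so the precision of low values such as those of NANOG cannot be given.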

Other observations

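The surface list holds 10 genes, of surface markers by which hESCs are sorted or stained and of the glycosyltransferase B3GALT5. Of the 10, 7 were lower at 48 h than at 0 h in the first WT series, beside 50.1% of all listed genes. The median log2 change of the 10 was -0.59. THY1 and CD24, 2 of the 10, were at least 2-fold lower, as 2.95% of all listed genes were. THY1 went from an RPKM of 195.7 to 95.4, PODXL from 204.3 to 118.9, FZD7, a Wnt receptor, from 135.5 to 83.1, and B3GALT5, a glycosyltransferase, from 15.4 to 9.5. Only 3 of the 10 held at every time, beside 66.9% of all listed genes: EPCAM, an adhesion molecule, with 127 at 0 h and 139.1 at 48 h, CDH1 (E-cadherin) with 68.6 and 69.2, and ALPL, the tissue-nonspecific alkaline phosphatase, with 97.7 and 97.1. EPCAM, CDH1 and ALPL were named after their values were seen.

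Of the other pluripotency genes, 6 of 41 with a position in the annotation had an SP5 peak summit within 100 kb, beside 10.1% of all listed genes with a position: LIN28A, OTX2, MYC, SALL3, PODXL and THY1. LIN28A had a summit 83 bases before its start in both lists, with 28 tags and an FDR of 66.1% and 46.9%, and a second, 8336 bases after it, with 49 tags and an FDR of 51.2% and 23.6%. The other 5 genes had a peak in 1 list each, at distances from 5663 bases (SALL3) to 89273 bases (MYC). The log2 changes of the 6 genes at 48 h in the first WT series went both ways, with -1.35 for MYC, -1.03 for THY1, -0.78 for PODXL, -0.37 for LIN28A, 0.60 for SALL3 and 1.46 for OTX2.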
